A study of Xenopus laevis with 28 samples.

Results

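Among the gene pairs of the allotetraploid frog Xenopus laevis, 54 combined an expressed L copy with an S copy that stayed silent in every adult tissue sampled. Both copies had to be named once in the deposited expression table, as the same symbol ending in L and in S. The S copy had to lie under 0.5 TPM in all 28 libraries, and the L copy had to average at least 10 TPM over them. TPM is the length-corrected share of a library's transcripts that comes from a gene model, on a scale that sums to 1000000. The table held 45831 gene models and 8017 such pairs, of which 3208 had an L copy that averaged at least 10 TPM. Symbols of ribosomal, respiratory-chain, proteasome, heat shock, keratin, claudin, cytochrome P450, solute carrier and a few other families were left out, which removed 5 pairs that met both bounds. Of the 54 pairs, 44 had a gene symbol and 10 had a placeholder, and placeholders are counted here but not named. The L and S levels chose these pairs, so the difference between the copies is a description and was not tested.

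Xenopus laevis arose by hybridisation of related diploid species, and its genome is made of an L and an S subgenome that descend from those parents. The matching copies of a gene on the L and S subgenomes are called homeologs. After such a doubling one homeolog can be deleted, can decay into a pseudogene, or can remain intact and be transcribed little or in other cells and stages, while its partner carries the function. Gene loss has been heavier on the S than on the L subgenome of this species.

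Polyadenylated RNA had been sequenced from whole brain, eye, heart, intestine, kidney, liver, lung, muscle, ovary, pancreas, skin, spleen, stomach and testis of adult frogs of the inbred J strain, with no treatment recorded and with 2 libraries for each of the 14 tissues. One library of each tissue belonged to the Taira dataset and the other to that of Ueno. For 13 tissues each dataset had a single female donor, while 2 males, siblings of those females, gave the testes. Each tissue therefore had n = 2, from different animals, and no genotype or treatment differed between groups.

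The 14 organ marker lists were each highest in their own organ, in both libraries, and every one of the 28 libraries had its closest match in the other library of its tissue (r from 0.870 to 0.963 on the log2 scale). Models above 0 ranged from 24533 to 34388 per library. Totals ran from 999999 to 1000001 TPM, so read depth is unknown, and a gene can fall in TPM because others take a larger share. The 10 most abundant models took between 1.52% and 62.8% of a library, and both pancreas libraries stood at the top of that range. In whole tissue, fewer cells of a type and less RNA per cell cannot be told apart.

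The S copies were at or very near the floor of the measurement. In 26 of the 54 pairs the S copy was listed at 0 in all 28 libraries. In the other 28 pairs it was above 0 somewhere, but only 80 of 1512 S values (5.29%) were above 0, with a median of 0.155 TPM among those and a highest value of 0.42 TPM. The label silent therefore stands here for a level under 0.5 TPM in adult tissue and not for a proven absence of transcripts. Testis held 15 of the S values above 0 and eye held 10, whereas intestine held none. Most of those in testis came from the Taira library. That library also had the most models above 0 of all 28, at 34388, beside 30188 and 29964 in the intestine libraries. The counts were not corrected for this and are no measure of a tissue difference. In 8 pairs the S copy was above 0 in both libraries of the same tissue. The most persistent was velo1.S, above 0 in 13 libraries and in both libraries of 5 tissues, at up to 0.23 TPM in the Taira lung. Neither ovary library was among them, although the ovary was where velo1.L was high. In the 5 tissues where velo1.S was above 0 in both libraries, velo1.L was at 0.04 TPM or less. For any pair, reads shared by near-identical copies could be divided between them by the authors' quantification. The sequence identity of the copies was not measured here, and the part of such reads was not tested.

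No gap in the highest S values marked the upper bound on S. Of the 54 pairs, 28 lay above 0 and under it, and 27 other pairs lay between 0.5 and 1 TPM. Just inside it were pef1 (0.42 TPM in the Ueno brain), a placeholder gene (0.4 TPM), exosc10 (0.39 TPM in the Taira testis), fmo2 (0.38 TPM in the Ueno skin) and gtf3a (0.38 TPM in the Ueno ovary). Just outside were the S copies of znf534 at 0.53, dct at 0.56 and serpina3 at 0.56 TPM. After the same families were left out, pairs whose L copy averaged at least 10 TPM numbered 54 with a highest S value under 0.5 TPM, 27 between 0.5 and 1, 27 between 1 and 2, 41 between 2 and 5, and 2841 at 5 TPM or more. On the L bound, the pairs just inside were kiaa0895l with a mean of 10.03, dcdc2b with 10.45 and jade2 with 10.95 TPM. The pairs just outside were ttc29-like with 9.76, ca6 with 9.52 and sec22c-like with 9.22 TPM.

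**Figure D1:**
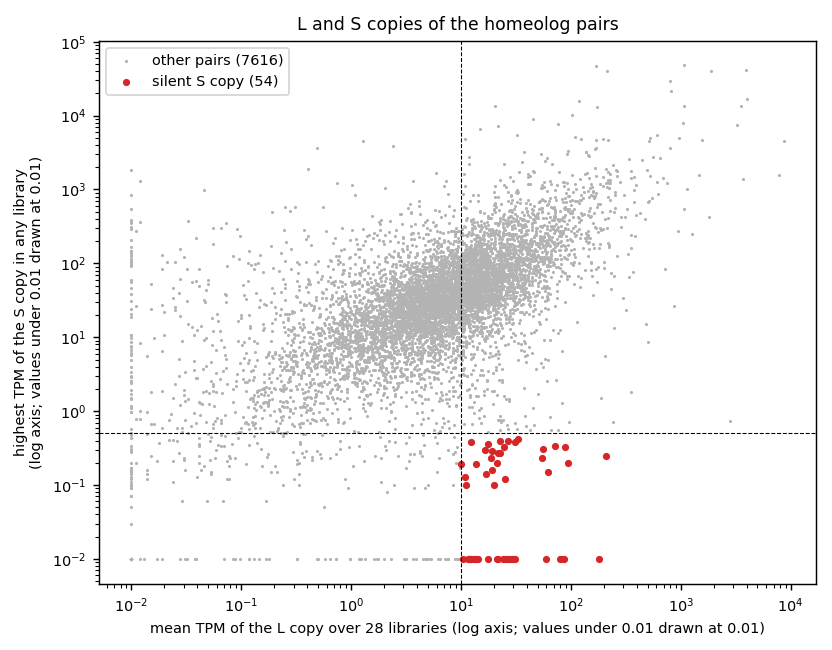
Each point is a pair of L and S copies matched by symbol. The horizontal axis gives the mean TPM of the L copy over 28 libraries. The vertical axis gives the highest TPM of the S copy in any library. Both axes are logarithmic, with values under 0.01 drawn at 0.01. Dashed lines mark the bounds of 10 and 0.5 TPM, and the 54 red points lie below and to the right of them, 26 of those with S at 0.

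Applied to the libraries of a single dataset, the same bounds could be checked in the other. The 14 Taira columns alone chose 69 pairs. In 64 of them (92.8%) the S copy was also under 0.5 TPM in every Ueno library, in 47 the L copy averaged at least 10 TPM there, and in 43 (62.3%) both held. The 14 Ueno columns alone chose 67 pairs, of which 44 (65.7%) had an S copy under 0.5 TPM in every Taira library, 66 an L copy of at least 10 TPM on average, and 43 (64.2%) both. The highest S value met in the other dataset was 6.59 TPM, for smyd1, which encodes a muscle methyltransferase. With L and S exchanged, and the same families left out, 31 pairs had a silent L copy. Without leaving out any family, a silent S copy was found in 59 of 3208 pairs with mean L of at least 10 TPM (1.84%), and a silent L copy in 34 of 2682 pairs with mean S of at least 10 TPM (1.27%).

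A property that the choice did not use was whether the copies are named in the current RefSeq annotation, whose assembly (Xenopus_laevis_v10.1) differs from the models of the expression table. RefSeq listed the L symbol for 39 of the 44 pairs with a symbol (88.6%), but the S symbol for 5 of 44 (11.4%). In the 2728 other pairs with a symbol and mean L of at least 10 TPM, the L symbol was listed for 80.8% and the S symbol for 76.9%. The 5 pairs with a listed S symbol were fkbp8, kiaa0895l, lyrm4, pef1 and smpx. Over pairs with a symbol and mean L of at least 10 TPM, with the same families left out, the share with a listed S symbol was 17.4% where S peaked between 0.5 and 1 TPM, 36.8% between 1 and 2, 34.6% between 2 and 5, and 78.1% at 5 TPM or more. Most silent S copies thus lacked a named entry. No test was applied to this, and RefSeq models are themselves built partly from expressed transcripts.

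**Figure D2:**
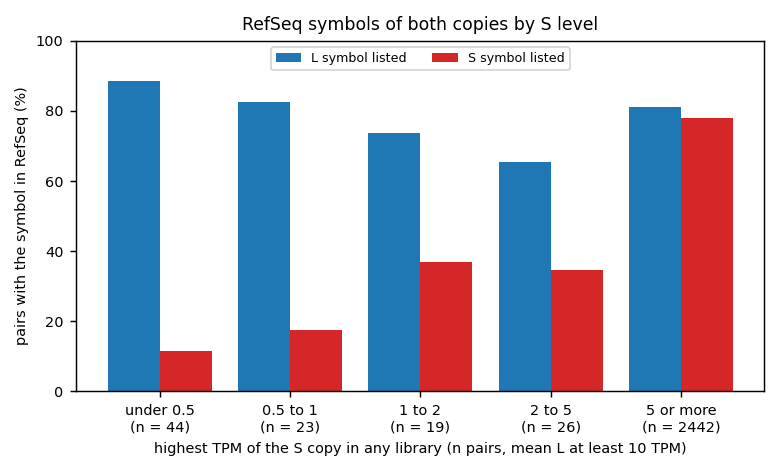
Bars give the percentage of pairs (mean L of at least 10 TPM, gene symbol present, families left out) whose L symbol (blue) or S symbol (red) is listed in RefSeq, grouped by the highest TPM of the S copy in any library. The L bars lie between 65.4% and 88.6% in every group, while the S bars go from 11.4% in the 44 pairs with S under 0.5 TPM to 78.1% in the group at 5 TPM or more.

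Gene order on the S subgenome was retained around these pairs. For 38 of them RefSeq named a gene on each side of the L copy that also had an S entry, and in 37 (97.4%) those flanking genes lay together on S too, with at most 20 entries between them, against 98.5% of 2063 other pairs. The pair's own S symbol stood between the flanks in 4 of the 37 (10.8%), against 90.3% of the other pairs. A symbol that RefSeq does not list cannot stand there, so this share largely restates the listing above. In 5 of the 37 (13.5%) no annotated entry at all stood between the flanks on S, against 0.787% of the other pairs. Those 5 were ccdc63, dcdc2b, gtf3a, ppox and smpd4. In the rest the interval held other entries, many of them placeholders. Whether a placeholder there is the S copy was not tested. An interval that holds the pair's own S symbol cannot be empty. The share of empty intervals therefore partly follows from the share with the own S symbol. The intervals on L were also shorter, with a median of 2 entries beside 3 for the other pairs.

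The expressed L copies spanned a wide range of levels. Their means over 28 libraries had a median of 22.3 TPM, beside 21.5 TPM for all 3208 L copies that averaged at least 10 TPM, and a highest value of 210 TPM in a placeholder gene. In 33 of 54 pairs (61.1%) the L copy reached 1 TPM in every library, beside 52.6% of the 3208. The coefficient of variation over the 14 tissue means had a median of 99% and ran from 27.4% to 373%, with a median of 99.6% over the 3208. In 15 pairs (27.8%, beside 28% of the 3208) the mean passed 10 TPM only through the highest tissue, so those genes had to differ between tissues. Of these, 10 had a symbol: velo1 and alg13 (ovary), ccdc63 (testis), creg2, pomgnt2 and kiaa0895l (brain), fmo2 (kidney), lcp2 and jade2 (spleen) and dcdc2b (lung). Their levels in that tissue are given as a description, with no test. Other pairs passed 10 TPM only through their 2 highest tissues together. Among them were gtf3a, tyw3, smpd4, gfer and ptrh2 (ovary and testis), smpx (heart and muscle), fam64a (lung and ovary) and agmo (intestine and kidney). Differences of these genes in those tissues follow in part from the choice and are given without p-values. Both libraries of the highest tissue lay above all 26 others in 28 pairs (51.9%, beside 43.4%). By the mean of its 2 libraries, the highest tissue was ovary for 17 pairs and testis for 10, together 50%, beside 37.3% of the 3208. For exosc10, fkbp8, mpv17l2, lyrm4, alg13, arl2bp, tsr3 and ralgapb-like the Ueno ovary was not the highest Ueno library. Likewise the Ueno testis was not the highest Ueno library for commd1 and metap1d. The ranks of these genes came from the Taira library, and all ranks are of TPM as deposited. Brain was highest for 5 (9.26%, beside 18.2%), lung for 5, intestine for 4, kidney for 4, spleen for 3, muscle for 2, heart, liver, pancreas and skin for 1 each, and eye and stomach for none.

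**Figure D3:**
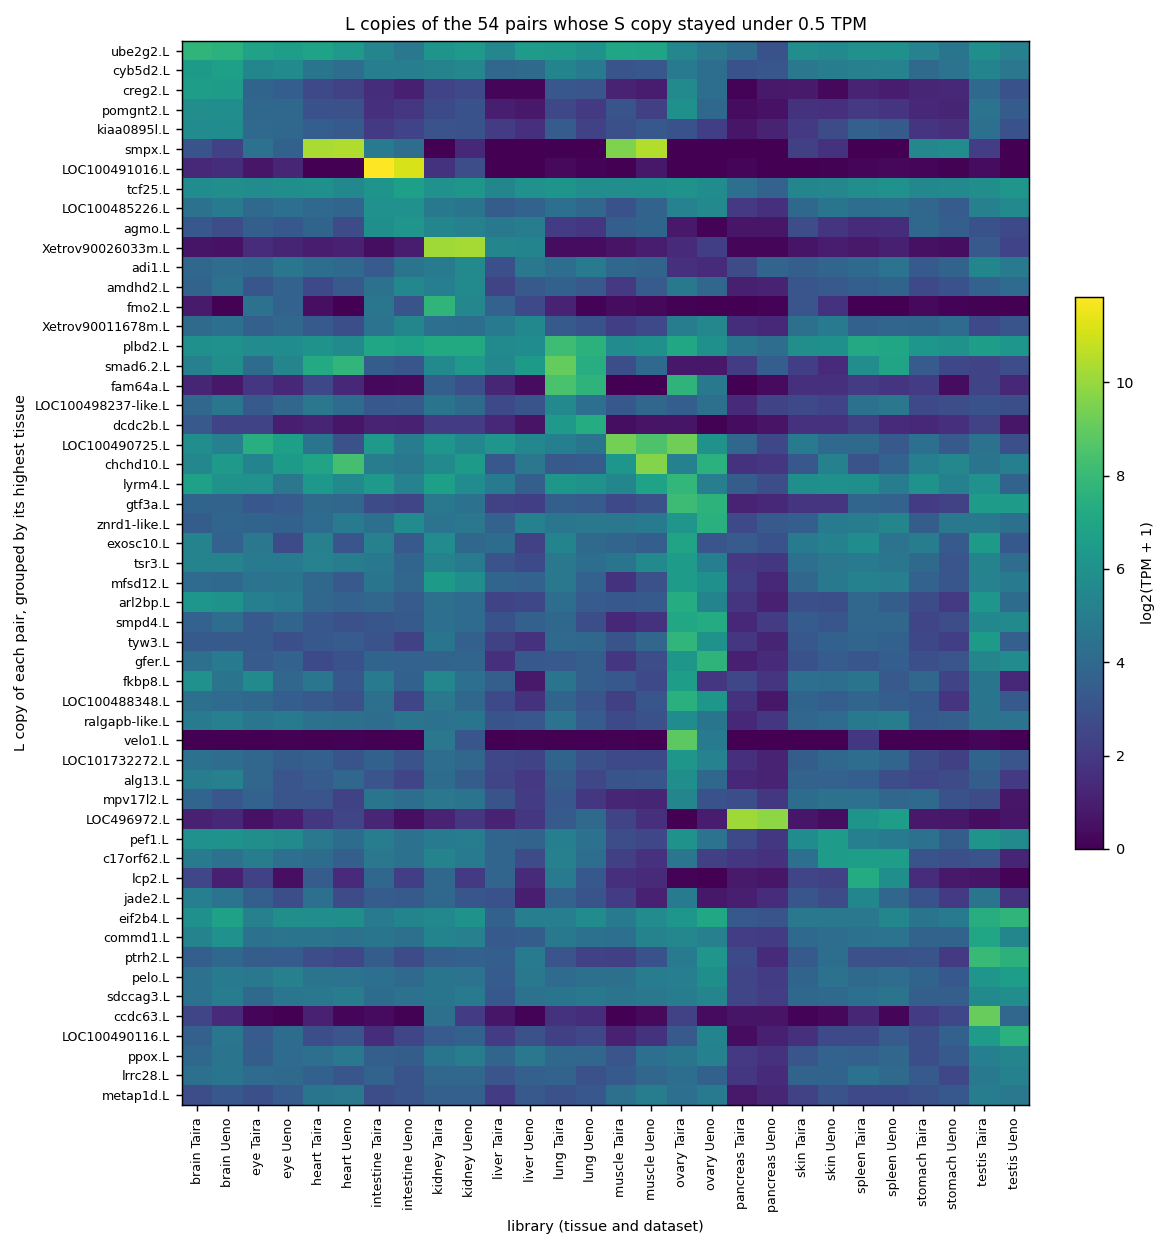
Colour gives log2(TPM + 1) of the L copy of each of the 54 pairs (rows, grouped by their highest tissue) in the 28 libraries (columns, Taira and Ueno for each tissue). By tissue mean, the largest groups of rows are highest in ovary (17 pairs) and testis (10 pairs). In some of these rows only the Taira gonad stands out. Both pancreas columns are dark for most rows.

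Each tissue was compared with the mean of the other 13 in a limma fit over 33317 models on log2(TPM + 1). A call needed an adjusted p (Benjamini-Hochberg) under 0.05 together with a log2 difference no smaller than 1 in size. The spread of a gene was estimated over all tissues together. Its standard errors and p-values therefore do not measure the spread between the libraries of a single tissue. The ovary had the most higher calls, with 25 of 54 L copies (46.3%). Beside these stood 34.7% of the L copies that averaged at least 10 TPM and 23.6% of all models. In testis 20 (37%) were higher, beside 23.6% of those L copies and 18.8% of all models. These counts include 3 L copies in ovary and 2 in testis whose mean passed 10 TPM only through that tissue, so 22 and 18 were called apart from those. The 22 and 18 still hold gtf3a, gfer, ptrh2, smpd4 and tyw3, which passed only through ovary and testis together. The median log2 difference of the 54 L copies was 1.0 in ovary, where that of the L copies of like level was 0.45 and that of all models -0.23. In testis it was 0.38, beside 0.15 for those L copies and 0.01 for all models. In brain 13 were higher, or 24.1% beside 34.5% of those L copies and 35.5% of all models, and 3 of the 13 had passed through brain. Of the 54, 48 were higher in at least 1 tissue (88.9%, beside 85.3% of all models) and 6 in none (exosc10, fkbp8, jade2, lyrm4, mpv17l2 and tcf25).

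In kidney 11 were called higher (20.4%, beside 19.2% of the L copies of like level and 13.9% of all models). In the same order of shares, eye had 7 (13%, beside 19.2% and 17.7%) and intestine 7 (13%, beside 13.2% and 10.7%). Lung had 6 (11.1%, beside 12.5% and 8.4%) and liver 5 (9.26%, beside 5.49% and 4.23%). In muscle 5 were higher (9.26%, beside 9.98% and 5.58%), in spleen 5 (9.26%, beside 16% and 15.7%) and in heart 4 (7.41%, beside 12.7% and 7.96%). Skin had 2 (3.7%, beside 8.05% and 7.88%), stomach 1 (1.85%, beside 4.68% and 3.88%) and pancreas 1 (1.85%, beside 1.12% and 0.825%). Of these calls, 2 in kidney and 1 each in intestine, lung, spleen and pancreas were of L copies that had passed through that tissue. The pancreas had the most genes called lower, with 46 of 54 (85.2%) beside 82.8% of the L copies that averaged at least 10 TPM and 52.6% of all models. The median difference of the 54 there was -2.19, beside -2.14 for those L copies and -1.33 for all models. Lower calls numbered 16 in muscle (29.6%, beside 36.4% of those L copies and 24.6% of all models) and 15 in liver (27.8%, beside 33.3% and 19.6%). Stomach had 14 (25.9%, beside 20.1% and 10.4%) and testis 10 (18.5%, beside 13.3% and 7.58%). Against these backgrounds the counts in most tissues were near what all models or all L copies of like level gave, and no difference between the 54 pairs and other pairs was tested.

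Rescaling each library by the median of ratios, which does not let a few abundant genes push all others down, put the median difference of all models between -0.36 and -0.10 in every tissue, where it had run from -1.33 in pancreas to 0.72 in brain, and changed many counts. Ovary then had 16 higher and 11 lower calls, testis 11 and 11, brain 4 and 11, kidney 5 and 2, eye 4 and 2, heart 2 and 4, intestine 7 and 8, and spleen 3 and 8. In pancreas the split went from 1 higher and 46 lower to 3 and 6, in liver from 5 and 15 to 8 and 4, in muscle from 5 and 16 to 10 and 7, and in stomach from 1 and 14 to 2 and 6. On that scale the ovary calls were 29.6% of the 54 higher, beside 23.8% of the L copies of like level and 17.7% of all models, and 20.4% lower, beside 29.7% and 24.1%. In testis 20.4% were higher, beside 15.6% and 13.9%, and in brain 7.41%, beside 12.5% and 17.9%. Lower calls made up 20.4% in testis, beside 21.2% and 13%, and 20.4% in brain, beside 18.8% and 9.95%. Kidney had 9.26% higher (9.73% and 7.29%) and 3.7% lower (3.49% and 1.78%). Eye had 7.41% higher (12.1% and 13.4%) and 3.7% lower (5.8% and 3.54%). Heart had 3.7% higher (11.3% and 7.8%) and 7.41% lower (10.8% and 6.48%). Intestine had 13% higher (11.9% and 10.4%) and 14.8% lower (8.67% and 5.45%). In muscle 18.5% were higher, beside 19.4% and 11.7%, and in pancreas 11.1% were lower, beside 7.76% and 3.99%. Muscle had 13% lower (17.9% and 12.9%) and pancreas 5.56% higher (5.77% and 4.74%). Spleen had 5.56% higher (8.61% and 10%) and 14.8% lower (15.6% and 9.44%). Liver had 14.8% higher (10.2% and 8.74%) and 7.41% lower (13% and 8.05%). Stomach had 3.7% higher (7.7% and 6.62%) and 11.1% lower (6.27% and 3.49%). Leaving out 1 library lowered the eye count to 1 or 2, heart to 2 without Ueno, kidney to 6 or 7, muscle to 2 without Ueno and spleen to 3 without Ueno. It also lowered the lower calls in stomach to 4 or 3, in testis to 6 or 3, in liver to 6 without Taira and in muscle to 10 without Taira.

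**Figure D4:**
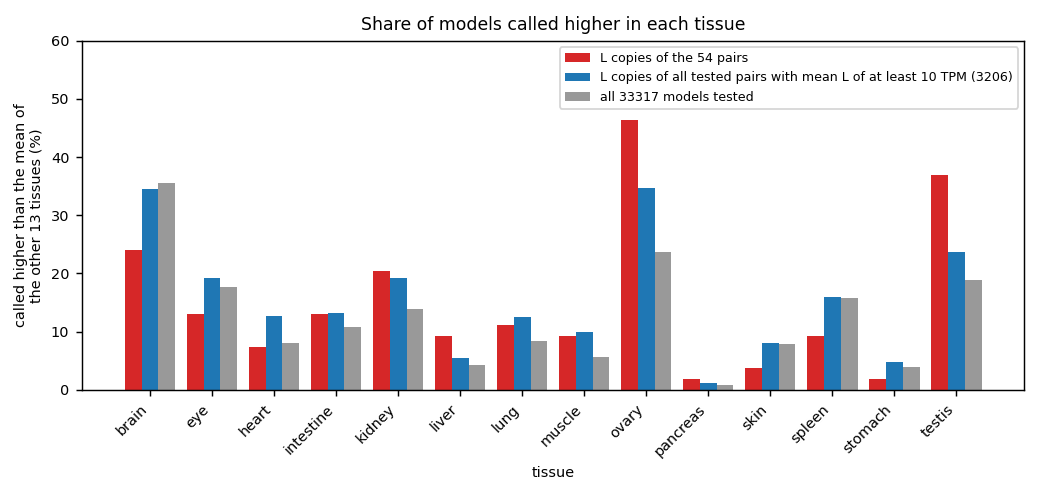
Bars give the percentage of models called higher in each tissue than in the mean of the other 13, for the L copies of the 54 pairs (red), for the L copies of tested pairs with mean L of at least 10 TPM (blue) and for all 33317 models (grey). Red stands above both others in ovary (46.3%) and testis (37%) and below both in brain (24.1%).

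Genes of RNA metabolism and translation formed one of the largest role groups, with 8 pairs, of which 6 were called higher in ovary (34.7% of L copies of like level), 4 in testis (23.6%) and 7 lower in pancreas (82.8%). The roles were assigned after the names were seen, and no role group was tested against other genes. The clearest was gtf3a, which encodes TFIIIA, the zinc-finger factor that starts transcription of 5S ribosomal RNA genes and that also stores 5S RNA in oocytes. Its L copy was at 276 TPM in the Taira and 198 in the Ueno ovary, at 91 and 92.8 TPM in testis, and between 1.21 and 25.8 TPM (median 7.4) in the 24 other libraries, while gtf3a.S was at 0.38 TPM in the Ueno ovary and at 0 in the 27 other libraries. Ovary, testis and the rest did not overlap. The log2 difference was 4.62 ± 0.19 (SE) in ovary and 3.18 ± 0.19 in testis. The znrd1-like gene, named like a small subunit of RNA polymerase I, was at 71.6 and 180 TPM in ovary and at most 51.5 elsewhere (2.49 ± 0.44, adjusted p = 0.000154, limma).

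Further genes of this group were also high in a gonad. The tRNA-modifying wybutosine synthesis gene tyw3 was at 222 and 65.5 TPM in ovary (3.68 ± 0.51). Its highest value elsewhere was 87.7 in the Taira testis, so its libraries overlapped. For eif2b4, the delta subunit of eIF2B, the nucleotide exchange factor of translation initiation, both testis libraries (165 and 213 TPM) lay above all others, of which the highest was 130 in the Ueno ovary. Its difference in testis was 2.33 ± 0.35 (adjusted p = 4.54e-05, limma). The ribosome rescue factor gene pelo was also highest in testis, at 70.4 and 96 TPM beside at most 58.4 elsewhere (2.11 ± 0.30, adjusted p = 3.27e-05, limma). The 18S rRNA modification gene tsr3 was at 89.1 and 33.8 TPM in ovary beside up to 48.5 elsewhere, and its call of 1.44 ended without the Taira ovary library, where it was 0.76, and under rescaling, where it was 0.86. Likewise eif2b4 in ovary (1.32) fell to 0.91 without the Ueno ovary library and to 0.73 under rescaling, both without a call.

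The nuclear exosome nuclease gene exosc10 was at 118 TPM in the Taira ovary but at 7.7 in the Ueno ovary, within the range of other tissues, and was called higher in no tissue. The most even of all 54 was tcf25, a gene of ribosome-associated quality control, with a coefficient of variation of 27.4%. Its L copy lay between 42.4 and 101 TPM in the 26 libraries outside pancreas and at 18.7 and 12.3 TPM in pancreas, its only call (-1.85 ± 0.22, adjusted p = 3.07e-06, limma). Over the same libraries tcf25.S peaked at 0.31 TPM. In pancreas the L copies of like level had a median difference of -2.14, and 82.8% of them were called lower.

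Mitochondrial proteins also made up 8 pairs, of which 4 were called higher in ovary (34.7% of L copies of like level), 4 in testis (23.6%), 2 in heart (12.7%) and 2 in muscle (9.98%). The peptidyl-tRNA hydrolase gene ptrh2 led testis, at 255 and 194 TPM beside 71.6 TPM at most in the 26 other libraries (4.49 ± 0.41). It was also higher in ovary (2.07 ± 0.41). The sulfhydryl oxidase gene gfer belongs to the disulfide relay of the intermembrane space. Its L copy was at 74.9 and 209 TPM in ovary and at most 51.4 elsewhere (3.66 ± 0.37). Both libraries of the highest tissue lay above all others for ptrh2 and gfer but for no other gene of this group.

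The L copy of chchd10, an intermembrane space protein gene, was at 73.8 and 808 TPM in muscle and at 121 and 320 TPM in heart, between 2.3 and 190 elsewhere. The Taira muscle was within the range of other tissues. Its difference in muscle, 3.05 ± 0.70 (adjusted p = 0.00239, limma), fell to 1.33 without the Ueno library and was no longer called. In heart 2.72 ± 0.70 (adjusted p = 0.00973, limma) was not called under rescaling (2.60) or without the Ueno library (2.02). The mitochondrial methionine aminopeptidase gene metap1d was higher in testis (1.67), muscle (1.45), heart (1.42) and ovary (1.33), and its testis call ended under rescaling (1.22).

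The heme synthesis gene ppox, protoporphyrinogen oxidase, was the only pair of the role lists among the 54, 1 of 163 list pairs (0.613%, beside 0.674% of all pairs). It was at 34 and 40.7 TPM in testis and up to 35.3 elsewhere (1.41 ± 0.31, adjusted p = 0.00172, limma), with no call under rescaling (0.96). The product of lyrm4, an iron-sulfur cluster assembly gene, is a partner of the desulfurase NFS1. Its L copy was at 228 TPM in the Taira ovary and 32.9 in the Ueno ovary. Elsewhere lyrm4.L ran from 6.06 TPM in the Ueno pancreas to 114 in the Ueno muscle. It was called lower in pancreas (-2.60 ± 0.62, adjusted p = 0.00178, limma), as were 82.8% of L copies of like level. The mitochondrial inner membrane protein gene mpv17l2 was at 41.9 TPM in the Taira ovary but 6.8 in the Ueno ovary, below the Ueno kidney at 22.3. It differed in ovary by 1.03 ± 0.53 (adjusted p = 0.112, limma). With the dataset as a replicate block its difference was called (adjusted p = 0.0216). The mitochondrial immunophilin gene fkbp8 was at 95.4 TPM in the Taira and 2.71 in the Ueno ovary and was higher in no tissue.

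Genes of lysosome, secretory pathway and glycosylation numbered 8, of which 4 were called higher in brain (34.5% of L copies of like level), 4 in ovary (34.7%), 3 in kidney (19.2%) and 3 in testis (23.6%), and all 8 lower in pancreas (82.8%). The brain count includes pomgnt2 and the ovary count alg13, which passed through those tissues. The lysosomal phospholipase B-like gene plbd2 was at 283 and 192 TPM in lung, above all 26 other libraries (17.9 to 147 TPM, 1.75 ± 0.24, adjusted p = 6.78e-05, limma). The sphingomyelinase gene smpd4 was at 130 and 155 TPM in ovary and at most 50.1 elsewhere (3.81 ± 0.28). Its ovary libraries also stood clear. The lysosome and melanosome membrane protein gene mfsd12 was high in ovary (89.5 and 60.4 TPM) and kidney (87.5 and 55.5 TPM), and these 4 libraries lay above the other 24, which reached 37.3 TPM.

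In brain, ube2g2, the ubiquitin-conjugating enzyme gene of endoplasmic reticulum-associated degradation, was at 213 and 190 TPM and at most 123 elsewhere (1.92 ± 0.31, adjusted p = 6.12e-05, limma), but the call ended under rescaling (0.74). The gene pomgnt2, which extends the O-mannose glycan of dystroglycan, was at 57.2 and 54.7 TPM in brain, with 59.5 in the Taira and 14.6 in the Ueno ovary and at most 22.1 elsewhere. The N-glycosylation gene alg13 had a similar shape, at 30.8 and 34.4 TPM in brain and 58.3 and 15.1 in ovary beside at most 17.1 elsewhere. The deacetylase gene amdhd2, of amino sugar breakdown, was at 33.6 and 50.1 TPM in kidney and up to 45.5 in the Ueno intestine, with a kidney call (2.04) lost under rescaling (1.28). The penta-EF-hand gene pef1 was at 53.9 and 89.6 TPM in skin but reached 67.8 in the Taira testis, and its skin call (1.56 ± 0.34, adjusted p = 0.00246, limma) ended without the Ueno skin library.

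Muscle, germ cells and immune cells were represented by 1, 2 and 2 pairs. The small striated muscle protein gene smpx had the highest mean of the named pairs (181 TPM) and was at 1299 and 1393 TPM in heart and 750 and 1437 in muscle, beside 0 to 50.5 TPM in the 24 other libraries, 12 of them at 0. Heart and muscle overlapped each other and lay far above the rest, and smpx.S was at 0 in all libraries although RefSeq lists it. The log2 difference was 8.04 ± 0.41 in heart and 7.64 ± 0.41 in muscle, through which its mean had passed 10 TPM. In stomach, at 43.3 and 50.5 TPM, smpx.L was also called (2.86 ± 0.41, adjusted p = 0.000135, limma). There the smooth muscle list summed to 4001 and 2933 TPM with 7 of 7 models above 0, and the skeletal muscle list to 18.2 and 25.8 TPM with 1 of 6 models at 1 TPM or more in both libraries. The smooth muscle list also summed to 2071 and 4858 TPM in lung, where smpx.L was at 0 in both libraries. In intestine that list summed to 2778 and 1923 TPM, with smpx.L at 28.3 and 17.6 TPM. The part of smooth or skeletal muscle in the stomach value was not tested.

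The germ cell genes were velo1 and ccdc63. The gene velo1, whose product builds the Balbiani body of frog oocytes, was at 466 TPM in the Taira ovary and at 28.2 in that of Ueno, a large spread between animals. Of the 26 other libraries 17 were at 0, and the highest were the kidneys, at 24.7 TPM in Taira and 8.12 in Ueno. The kidney was called too (3.32 ± 0.60, adjusted p = 0.000524, limma), but not without its Taira library (2.57). Both kidney libraries also held ovary markers: all 8 models of that list were at 1 TPM or more, summing to 212 and 324 TPM beside 3525 and 6744 in ovary and at most 188 in any other library. The part of ovarian RNA in the kidney value was not tested. Coiled-coil gene ccdc63, known in mammals as a sperm outer dynein arm component, was at 547 TPM in the Taira testis and only 14 in that of Ueno, below the Taira kidney at 19.9. The summed testis markers likewise differed between those testis libraries, at 1179 and 376 TPM.

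Both immune cell genes were highest in spleen. The adaptor gene lcp2, or SLP-76, which links antigen receptors to phospholipase C signalling, was at 154 and 57.8 TPM in spleen and at most 28.5 TPM elsewhere, in the Taira lung. The gene c17orf62, a chaperone of the phagocyte NADPH oxidase, was at 93.9 and 98.2 TPM in spleen, above all others (2.86 ± 0.54, adjusted p = 0.000663, limma), and at 88.2 TPM in the Ueno skin but 19.3 in the Taira skin. Its skin call (1.58, adjusted p = 0.0455, limma) was lost without 20 of the 28 libraries, left out one at a time. In those skin libraries macrophage markers summed to 9.45 TPM in Taira and 6.22 in Ueno, and their part in the c17orf62 values was not tested.

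**Figure D5:**
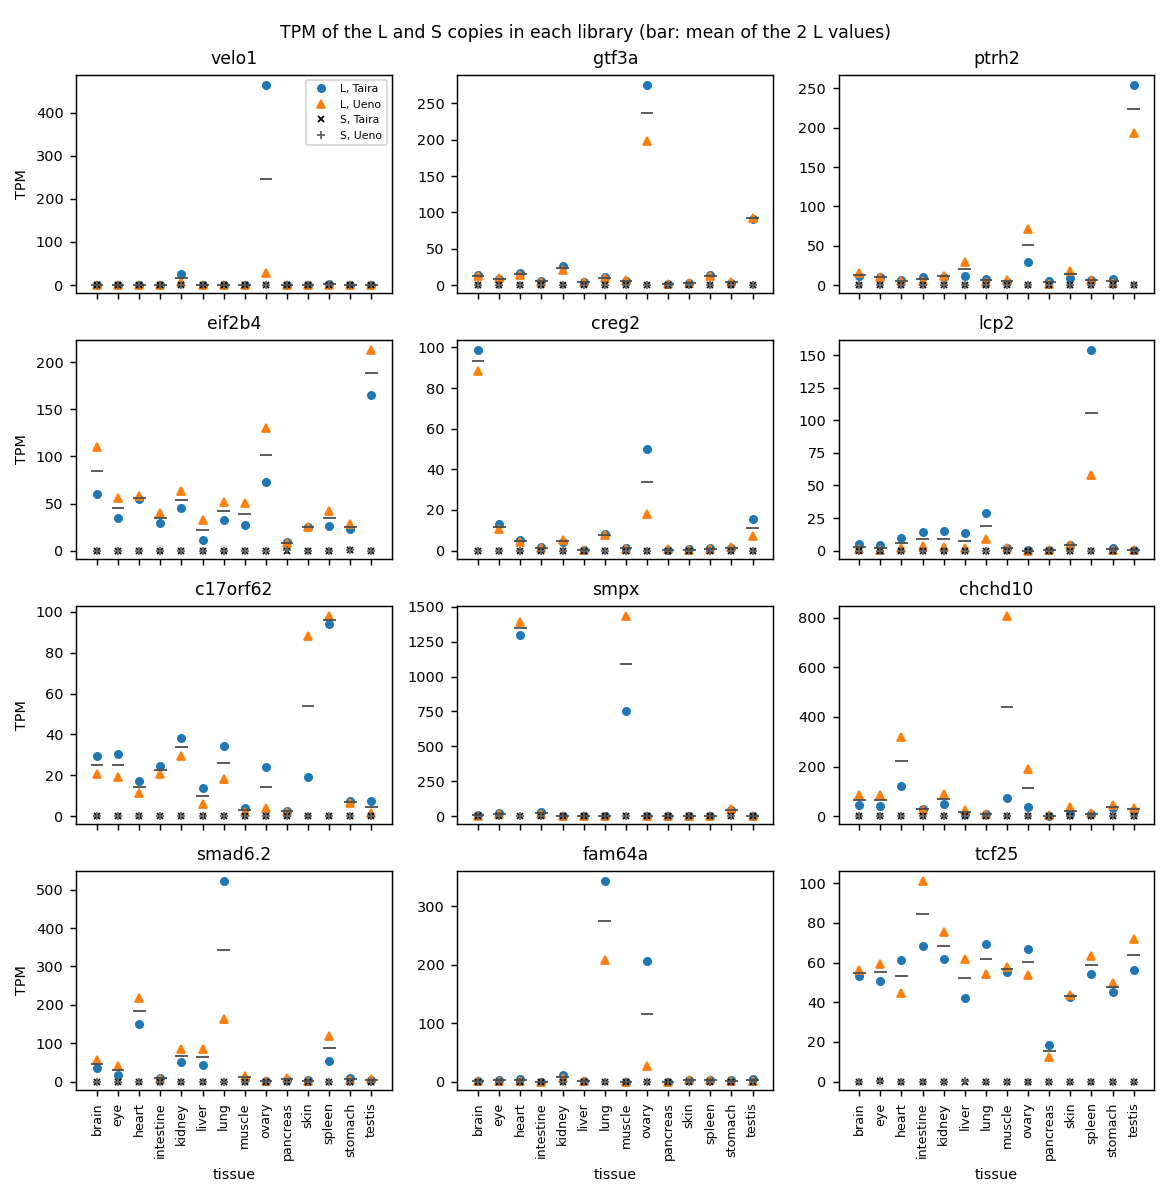
TPM of the L copy (blue circles, Taira; orange triangles, Ueno; bar, mean of the 2) and of the S copy (crosses) of 12 pairs in each of the 14 tissues, on linear axes that differ between panels. The S symbols lie at or near 0 in every panel. The L copies range from a clear lead of a single tissue (ptrh2 in testis, also called higher in ovary) to near evenness (tcf25).

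Among signalling and trafficking genes, the inhibitory SMAD gene smad6.2 was the most restricted. It was at 522 and 163 TPM in lung and 149 and 217 in heart, beside 0.67 to 119 TPM elsewhere, and lowest in ovary (0.67 and 0.72 TPM). It was called in lung (4.05 ± 0.47, adjusted p = 1.26e-05, limma) and in heart (adjusted p = 7.59e-05, limma), and also in spleen, kidney and liver. Endothelial markers, with 6 of 6 models above 0, summed to 505 TPM in the Taira and 35.7 in the Ueno lung. That order was the same as for smad6.2. In heart these markers summed to 153 TPM in Taira and 73.7 in Ueno, the opposite order to smad6.2. Their part in either tissue was not tested. The gene arl2bp, which encodes a binding partner of the small GTPase ARL2, was at 162 and 40 TPM in ovary and at 74.2 and 65.8 in brain. For commd1, of copper and endosomal trafficking, testis held 122 and 42.2 TPM beside up to 61.5 in brain (1.80 ± 0.30, adjusted p = 0.000128, limma). The endosomal gene sdccag3 was clear of overlap in testis (48.5 and 55.6 TPM, at most 40.5 elsewhere, 1.45 ± 0.26), with 0.99 and no call under rescaling. The Ral GTPase-activating protein gene ralgapb-like was at 52.6 and 23 TPM in ovary, and its call (adjusted p = 0.00161, limma) ended under rescaling (0.64) and without the Taira ovary library (0.62).

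The 3 metabolic enzymes were all called higher in kidney (19.2% of L copies of like level) and lower in ovary (24%), although fmo2 passed through kidney and the kidney call of adi1 was lost under several settings. The flavin monooxygenase gene fmo2 was at 210 and 43.6 TPM in kidney and at most 23.8 elsewhere, with both kidneys above all other libraries. The ether lipid-cleaving monooxygenase gene agmo led intestine, at 58.2 and 70.3 TPM (3.17 ± 0.29). The kidney was next at 41.8 and 35 TPM, with no overlap between these tissues. The methionine salvage gene adi1 was at 28.9 and 46 TPM in kidney and at 2.08 and 1.73 in ovary (-2.62 ± 0.39, adjusted p = 2.85e-05, limma). Its kidney call of 1.35 was lost under rescaling (0.54) and without either kidney library (1.68 and 1.03), whereas both of its ovary values lay under all 26 others.

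The remaining named pairs had mixed roles. The mitotic regulator gene fam64a led lung, at 343 and 208 TPM (6.38 ± 0.54). In ovary it was at 206 TPM in Taira and 26.4 in Ueno (4.41 ± 0.54), and the 24 other libraries reached at most 10.9. In testis it was at 4.45 and 1.49 TPM. The secreted glycoprotein gene creg2 led brain, at 98.7 and 88.3 TPM, above all other libraries, of which the Taira ovary was highest at 49.8. Also clear of overlap were kiaa0895l in brain (51.1 and 52.7 TPM, at most 18.9 elsewhere), cyb5d2, a heme-binding protein gene, in brain (85.8 and 102 TPM, at most 47.4), and the doublecortin-domain gene dcdc2b in lung (79.7 and 161 TPM, at most 8.94). Of these the cyb5d2 call (1.98) ended under rescaling (0.81). The model number of cyb5d2.L was near those of dcdc2b.L and creg2.L, but that of cyb5d2.S was near those of lyrm4.S and velo1.S. The pair rests on its symbol, and whether cyb5d2.S is the homeolog of cyb5d2.L was not tested. The leucine-rich repeat gene lrrc28 had a coefficient of variation of 52.1% and its highest values in testis (26.9 and 35.6 TPM), a call that ended under rescaling. The HBO1 complex scaffold gene jade2 was at 42 and 14.1 TPM in spleen.

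The 10 placeholder genes included the highest L mean, 210 TPM, from a gene at 3653 and 2205 TPM in intestine and at most 5.84 TPM in any other library. Another was at 1125 and 1203 TPM in kidney and at most 41.4 elsewhere, and one more at 1123 and 920 TPM in pancreas and at most 94.5 elsewhere. That last gene was the single L copy called higher in pancreas, where 46 others were lower, and its mean passed 10 TPM only through pancreas. The other 7 had their highest tissue means at between 33 and 513 TPM, in ovary, testis, intestine, muscle, lung or liver.

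Between the female donors, Ueno minus Taira over 13 tissues with tissue as a block, 1 of 54 L copies was called higher in Ueno (0.648% of all models) and 5 in Taira (9.93% of all models). The gene higher in Ueno was chchd10 (1.13 ± 0.26, adjusted p = 0.00319, limma, higher in 12 of 13 tissues), and it was not called without either muscle library. Of those higher in Taira, fkbp8 differed in the same direction in 13 of 13 tissues (-1.50 ± 0.29, adjusted p = 0.0011, limma), with means of 31.2 and 9.93 TPM. So did lcp2 (-1.21 ± 0.22, adjusted p = 0.000791, limma), with means of 19.5 and 6.55 TPM. The summed spleen and macrophage markers were each also higher in Taira in 12 of 13 tissues. This was not limited to immune markers. The erythrocyte and testis lists were higher in Taira in 13 of 13 tissues and the brain and stomach lists in 11. The lowest count was 4 of 13, for smooth muscle. The part of immune cells in the lcp2 difference was not tested. The others were exosc10 (-1.50), jade2 (-1.07) and a placeholder gene. Without either ovary library 3 were called, and under rescaling the counts were 5 in Ueno and 2 in Taira, with lcp2 not called (-0.92). The shares over all models under these settings were not computed. Donor, dataset and collection date cannot be told apart in this comparison. Each side was 1 female whose tissues served as replicates. The standard errors and p-values therefore measure agreement over tissues and give no spread between frogs.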

How the data were processed

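Per the labels' protocols, RNA of minced whole tissue was taken up in TRIzol and purified on columns, and unstranded poly-A libraries were sequenced on a HiSeq instrument. Reads had been processed with BWA 0.7.10 and RSEM 1.2.19, as the submitters' processing notes list, against cDNA models, per the labels. The authors deposited 1 table of TPM values, a length-corrected share of each library scaled to 1000000. TPM keeps no read depth, so counting error is unknown and no count model was used.

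The members and all lists were chosen with earlier results of these data known, and the role groups and partner lists were written after the members' names were seen. Pairs, levels and shares were computed with Python 3.11.15, numpy 2.4.6 and pandas 2.3.3. Models at 1 TPM or more in at least 2 libraries (33317 of 45831) were transformed to log2(TPM + 1), where changes of low genes come out too small. The fit used limma 3.58.1 (R 4.3.3), tissue means, a variance trend and 14 residual degrees of freedom. Adjusted p-values are Benjamini-Hochberg values over all tested models within a comparison. The fit was tested on simulated data. The frogs were compared over the 26 female libraries with tissue as a block.

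Same-numbered libraries of 13 tissues come from the same female, so the numbers pair the samples. Across genes, Ueno minus Taira differences of any 2 female tissues had a median correlation of 0.425 over 78 pairs of tissues (from -0.0138 to 0.723, 74 over 0.1). The testis libraries come from other animals, and the dataset as a replicate block was an alternative. Other alternatives were pseudocounts of 0.1 and 5, no filter, median-of-ratios scaling, other bounds on S and L, the testis libraries added when frogs were compared, and each library left out in turn.

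Genes were named by rule: the member leading each tissue with both libraries above all others, the 8 highest means, the 6 most even, those at the bounds, members called between frogs in all 13 tissues, and members of the role lists. Other genes were described by role after their values were seen. RefSeq symbols were matched exactly, and for the neighbours up to 10 entries were searched on each side. No coordinates or sequences were used.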

Additional observations from a re-analysis of the deposited data

How the results depend on the processing

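The number of pairs was 26 with S under 0.1 TPM, 143 with a mean S under 0.5 TPM and 31 with a mean L of at least 20 TPM, and between 59 and 81 under the other bounds, datasets and scaling. Under median-of-ratios scaling the higher calls numbered 4 in brain, 4 in eye, 2 in heart, 5 in kidney, 8 in liver, 10 in muscle, 16 in ovary, 11 in testis, 3 in pancreas, 3 in spleen and 2 in stomach. The lower calls then numbered 4 in liver, 7 in muscle, 6 in pancreas and 6 in stomach, and the frogs had 5 calls for Ueno and 2 for Taira. Shares over all models are given above for the rescaled tissue counts and were not computed for the frogs or the other settings. With a pseudocount of 5 there were 2 higher calls in eye, 7 lower in liver, 10 in muscle, 5 in stomach and 4 in testis, and 2 for Taira, and with no filter 1 higher in skin. The cause was not tested. With 1 library left out, higher calls ranged from 9 to 15 in brain, 1 to 8 in eye, 2 to 4 in heart, 5 to 8 in intestine, 6 to 14 in kidney, 4 to 5 in liver, 5 to 7 in lung, 2 to 5 in muscle, 23 to 27 in ovary, 1 to 1 in pancreas, 0 to 3 in skin, 3 to 7 in spleen, 1 to 1 in stomach and 14 to 22 in testis. Lower calls ranged from 6 to 20 in liver, 10 to 18 in muscle, 40 to 49 in pancreas, 3 to 16 in stomach and 3 to 10 in testis, and those of the frogs from 0 to 1 for Ueno and 3 to 5 for Taira. With the dataset as a replicate block, ovary had 27 and testis 20 higher calls and pancreas 49 lower, every count was within 1.5 times of that without the block, and among the named results the calls of mpv17l2 in ovary and of jade2 in spleen, through which its mean passed 10 TPM, were gained. Of 1976 alternative values of 60 gene results, 1919 left the call as it was, 51 ended it, 6 gained one and none reversed. Counted by result, only 36 of the 60 had no changed call under any alternative. Most alternatives left out a library of another tissue, and the 60 include genes whose mean passed 10 TPM only through the tissue compared. The 1919 are therefore no measure of how firm the calls are. Depth is unknown, so an S value of 0 gives no upper limit, and each tissue rests on 2 animals.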

Other observations

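Partners of several of the 54 genes had both homeologs expressed. Within eIF2B, eif2b1 averaged 15.4 TPM from L and 3.65 from S, whereas eif2b4.S reached at most 0.23 TPM. In iron-sulfur cluster assembly iscu averaged 55.7 and 48.5 TPM from L and S beside lyrm4.S at 0. The ribosome rescue partner of pelo, abce1, averaged 46.7 and 30.9 TPM, and chchd4, the disulfide relay partner of gfer, averaged 10.2 and 19.3 TPM. In spleen, grap2, which binds the lcp2 product, was at 63.7 TPM from L and 39 from S, and ncf4 of the NADPH oxidase was at 48.5 and 55.7 TPM. In other partners the L copy was the low one: tyw1, of the same tRNA pathway as tyw3, averaged 14.4 TPM from S and 0.186 from L, and fktn, of the same glycan pathway as pomgnt2, averaged 14.4 TPM from S with L listed at 0. In heme synthesis alas1 averaged 73.1 and 65.2 TPM from L and S, and fech 16.1 and 1.58, beside ppox.S at no more than 0.14.

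The families left out held 5 further pairs with a silent S copy. They were ndufv2 (mean L 152 TPM, highest in muscle at 645), vma21 (95.6, highest in brain at 252), mrps15 (60.3, highest in testis at 192), cyp20a1 (25, highest in ovary at 53.4) and hspa12b (17.3, highest in lung at 96.5). Of the pairs with a silent L copy, 25 had a symbol, and RefSeq listed the L symbol for 4 of them (16%) and the S symbol for 19 (76%). On the L subgenome, 2 pairs of members lay within 10 entries of each other: chchd10 and fkbp8 with 7 entries between them, and dcdc2b and pef1 with 8.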
